A study of Mus musculus with 6 samples.

Results

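The Hlf locus is a stretch of mouse chromosome 11, from 90170000 to 90280000 in build mm9, that holds the gene Hlf and its flanks. Its members were the 1494 CpGs that the deposited table lists there, of 20451903 CpGs in all. The locus was picked because a stretch of about 6 kb near the 5′ end of the gene was more methylated in Tet2/Tet3 DKO cells. The difference between genotypes in the locus is therefore given as a description: calls from a test over all windows of the genome are counted and mark out the stretch, but nothing is supported with them. Methylation was read by bisulfite sequencing of the whole genome in LSK cells, a bone marrow fraction that is sorted for c-Kit and Sca-1 after removal of lineage-positive cells and is enriched for stem and progenitor cells. There were 3 samples of wild type LSK cells (WT) and 3 of Tet2/Tet3 DKO LSK cells (DKO), in which both Tet genes are deleted, with no treatment named for either group. The question was what loss of both proteins does to DNA methylation in these cells. The sources used here name no alleles, no Cre driver and no age of the mice. The labels call the samples biological replicates and do not say whether each came from a single mouse, so the spread given here is that between these samples. Methylation values cannot check the sorted cell type against marker genes.

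Hlf encodes hepatic leukemia factor, a transcription factor of the PAR bZIP family, which has a proline- and acidic-rich domain beside its basic leucine zipper. It is used as a marker of hematopoietic stem cells, is switched off as these cells mature, and is known in leukemia as the partner of TCF3 in a fusion protein. Tet enzymes oxidise 5-methylcytosine to 5-hydroxymethylcytosine and further products, which opens a way to unmethylated cytosine, and they act largely at enhancers and at the edges of CpG islands. Bisulfite sequencing reads both marks as methylated, so a level here is their sum. The level is the number of methylated reads over all reads, in percent, and in a bulk sample it does not tell the share of cells from the share of alleles. A read is counted at each CpG that it covers.

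The samples had 70815948 to 111763872 read calls at CpGs, a mean of 3.57 ± 0.0549 per autosomal CpG in WT and 4.96 ± 0.719 in DKO (SD, n = 3). In the locus they had 4997 to 8167. In the check of the deleted genes, the stretch of successive CpGs without a DKO read that had the most reads in its least covered WT sample lay on chromosome 3, which carries Tet2, with 130, 191 and 162 reads in WT and 0 in each DKO sample. The next lay on chromosome 6, which carries Tet3, with 126, 121 and 118 reads in WT and 0 in each DKO sample. The third lay on chromosome 12, which carries neither gene, with 44, 99 and 57 reads in WT and 0 in each DKO sample. Stretches without DKO reads were thus not limited to the chromosomes of the deleted genes. On mitochondrial DNA, taken as unmethylated, the level was 1.28% ± 0.0797 for WT against 1.71% ± 0.170 for DKO, which bounds how much unconverted cytosine adds to a level.

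The start of Hlf was placed in the table by sequence. The RefSeq promoter of Hlf (GRCm38.p6, 300 bases, minus strand) holds 30 CpGs, and the table lists CpGs with exactly this spacing at 1 place on chromosome 11, with all 30 present. This puts the transcription start at 90252231 (mm9), with the gene running towards lower coordinates. The intervals of the table were read as counting from 0, and positions would move by 1 base if they count from 1. In the gene table's order, Mmd lies on the 3′ side of Hlf and the noncoding gene Gm34850 on the 5′ side. No mm9 gene model was used, so exons, introns and the 3′ end of Hlf are not marked, and positions are given as distances from the start. The 250 bases before the start, at chr11:90252232-90252481 on the minus strand, are shown because they are the promoter that was unmethylated in both genotypes. Capitals mark the 26 CpGs.
Hlf promoter: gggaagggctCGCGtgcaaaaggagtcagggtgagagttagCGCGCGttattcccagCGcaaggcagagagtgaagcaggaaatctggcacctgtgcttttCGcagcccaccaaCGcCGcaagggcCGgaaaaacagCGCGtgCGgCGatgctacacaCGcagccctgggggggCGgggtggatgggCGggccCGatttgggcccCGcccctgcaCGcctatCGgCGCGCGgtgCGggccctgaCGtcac

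A search of the 300 bases on both strands found 1 match to TGACGTCA, the cAMP response element bound by CREB-type bZIP factors, which begins 9 bases before the start and has a CpG at its centre. This element is in 1.79% of the 32851 mouse promoters in the table. GGGCGG, the GC box, was found 2 times on the gene's strand and 1 time on the other, and is in 35.7% of promoters. TTACGTAA, a site bound by PAR bZIP proteins, was not found in this window and is in 0.119% of promoters. None of these matches overlapped another. The promoter was read thinly, with at most 4 reads at a CpG in any sample. All 76 WT reads and all 81 DKO reads over its 30 CpGs were unmethylated. Counts of 0 would allow up to 3.95% in WT and 3.70% in DKO if each of these counts were independent. Counts at neighbouring CpGs often come from the same molecule, so the true limits are wider. The limits given also cover counting error only. The samples had 50, 24 and 2 reads in WT and 6, 20 and 55 in DKO, so WT replicate 3 and DKO replicate 1 carry almost no information on the promoter.

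Methylation 6.2 to 12.2 kb downstream of the Hlf start was far higher in DKO than in WT. This gained stretch, from 90240001 to 90246000, is the largest run in the locus of 1 kb windows called higher in DKO and at most 1 kb apart. Over its 86 CpGs the WT samples had 33.2%, 37.1% and 21.5%, and the DKO samples had 72.9%, 73.6% and 72.9%. The lowest DKO sample was thus well above the highest WT sample. WT averaged 30.6% ± 8.12 and DKO 73.1% ± 0.426 (SD, n = 3 each), so the means were 42.6 ± 4.69 points apart (SE). The WT samples spread over a wider range than the DKO samples. With 294 to 531 reads per sample, 95% Wilson intervals were 17.4% to 26.2% in WT replicate 3, 31.8% to 42.7% in WT replicate 2 and 69.7% to 77.2% in DKO replicate 2. The interval of WT replicate 3 lay below those of WT replicate 2 and of WT replicate 1 (28.6% to 38.0%). These intervals take counts at neighbouring CpGs as independent and so are too narrow. Whether WT replicate 3 differed by more than counting error was not tested.

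A window was called when an adjusted p under 0.05 in a quasi-binomial test with limma's moderation of the dispersion, over all 774732 autosomal windows tested, came with at least 10 points. Of the 77 windows of the locus with enough reads, 10 were called higher and 0 lower, against 0.49% and 0.00723% of the windows tested genome-wide. Of the 10, 2 had a WT mean under 10% and 6 one of 10 to 50%. Among windows genome-wide with a WT mean under 50%, 3.57% were called higher. The locus was picked from this contrast, so nothing is read from these counts. Leaving out WT replicate 1, 2 or 3 left 2, 4 or 3 calls, and leaving out DKO replicate 1, 2 or 3 left 3, 1 or 3. Limma applied to log2 ratios called 0, with 20 windows higher at an unadjusted p under 0.05. Genome-wide limma also called 0, and the runs without each sample called 29 to 738 windows higher, against 3798 with all samples. The levels themselves moved little: without each sample in turn the difference over the gained stretch was 38.0 to 45.8 points.

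**Figure D1:**
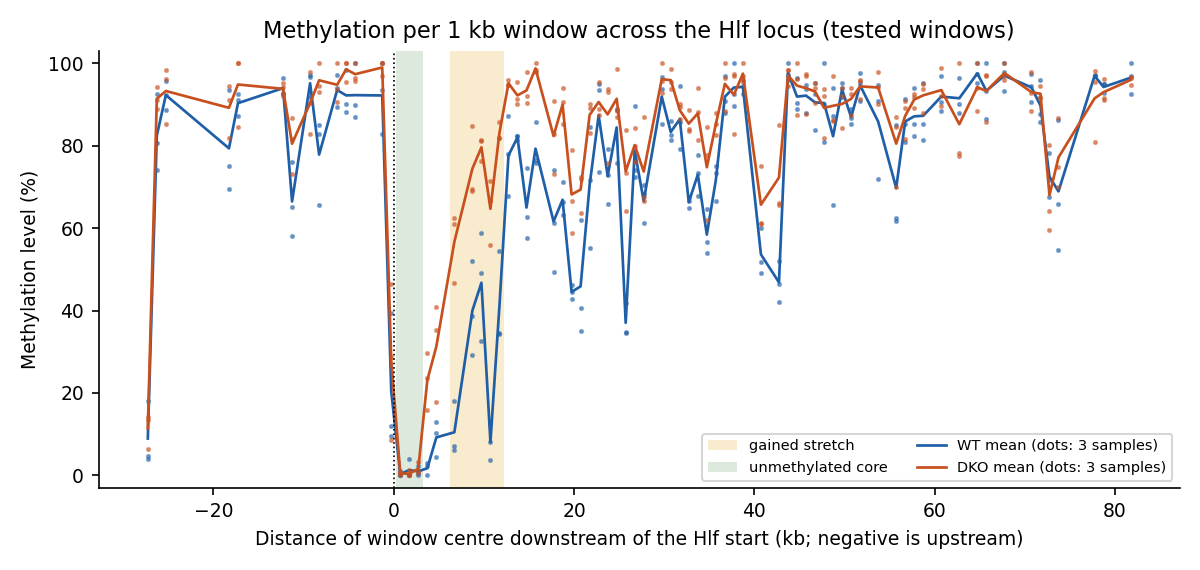
Methylation level (%) of each tested 1 kb window against the distance of its centre downstream of the Hlf start (kb). Lines are the means of 3 WT and 3 DKO samples and dots the samples; the DKO line lies above the WT line through the gained stretch, where the means are 30.6% and 73.1%, and both lie near 1% in the unmethylated core.

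Within the gained stretch the 6 windows differed in their WT level and in the size of the difference. The lowest of the 6 in WT was the window centred 10.7 kb downstream of the start (17 CpGs), with 3.6%, 12.5% and 8.2% in WT and 55.8%, 71.5% and 66.7% in DKO. Its difference of 56.6 ± 5.30 points (SE) was the largest among the tested windows of the locus, which was picked for this gain. This window lay between windows of intermediate WT level on either side. The window at 9.7 kb had 58.7%, 49.0% and 32.5% in WT and 76.3%, 81.3% and 81.2% in DKO. The window at 11.7 kb had 34.3%, 54.5% and 34.6% in WT and 81.8%, 85.7% and 81.8% in DKO. WT replicate 2 was the highest WT sample at 11.7 kb and WT replicate 1 at 9.7 kb, and the DKO samples were close together in both.

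The WT level was low again at the end of the stretch that faces the promoter. The window at 6.7 kb (11 CpGs) had 7.14%, 18.03% and 6.25% in WT and 62.5%, 60.9% and 46.7% in DKO, a difference of 46.2 ± 6.30 points. The window at 8.7 kb had 38.8%, 52.0% and 29.3% in WT and 84.8%, 69.0% and 69.4% in DKO, a difference of 34.4 points. The window at 7.7 kb, with too few reads to be tested (15 to 33 per sample), had 40.7%, 44.0% and 36.4% in WT and 60.0%, 66.7% and 68.2% in DKO. In all 6 windows the lowest DKO value exceeded the highest WT value, an order that 9.05% of the windows tested genome-wide showed and that the choice of the stretch favours. The 10.7 kb window was still below both of its neighbours in DKO, with 64.7% against 83.1% at 11.7 kb and 79.6% at 9.7 kb, and its samples did not overlap theirs.

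Single CpGs varied sharply over short distances. Of the 78 CpGs of the gained stretch with at least 5 pooled reads in each group, 75 had the higher pooled level in DKO, 1 had the lower and 2 were equal. The stretch was chosen as higher in DKO, which favours this count. Of 1189 such CpGs in the rest of the locus, 509 were higher in DKO, 267 lower and 413 equal. The median pooled level of the 78 CpGs of the stretch was 25.1% in WT and 76.9% in DKO. In WT 20 of these CpGs had no methylated read and 7 were at 80% or more; in DKO 0 had no methylated read and 37 were at 80% or more. The CpGs named here are 3 with the most reads in their least covered sample and, of the others that tie at 3 reads there, the first 3 by position. The CpG at 90241955 was methylated in 0% of 19 pooled WT reads and 36.4% of 22 DKO reads, with 62.5%, 11.1% and 40% in the DKO samples. The CpG at 90242033, the next named one along the chromosome, had 93.3% of 15 WT reads and 100% of 15 DKO reads. Its neighbour at 90242036 had 92.9% of 14 and 94.1% of 17, so these 2 sites inside the gained stretch were highly methylated in both genotypes. The CpG at 90242857 went with the stretch, with 23.5% of 17 WT reads and 92.6% of 27 DKO reads, and so did the one at 90242859, with 35.0% of 20 and 96.3% of 27. The CpG at 90241382 had 12.5% of 16 WT reads, both methylated ones from WT replicate 2, and 84.2% of 19 DKO reads. Reads of neighbouring CpGs are often the same molecules, so these pairs are not independent.

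**Figure D2:**
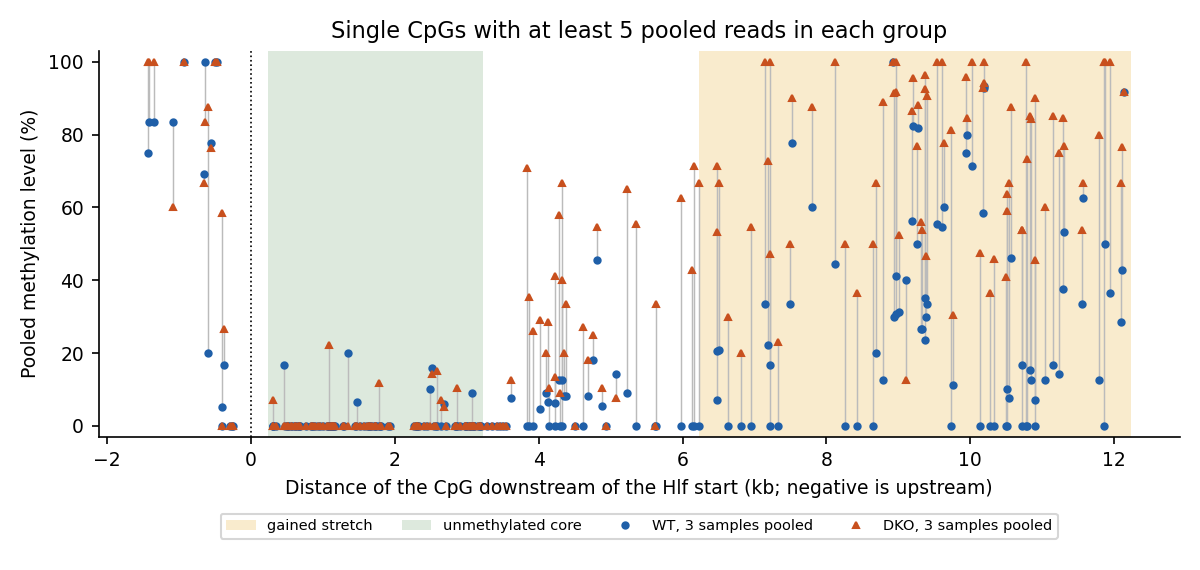
Pooled methylation level (%) of single CpGs with at least 5 pooled reads in each group, against distance downstream of the Hlf start (kb); a grey line joins the WT circle and the DKO triangle of a CpG. In the gained stretch, which was chosen as higher in DKO, 75 of 78 triangles lie above their circles. In the unmethylated core, chosen as low in both groups, most of both lie at 0.

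The gain went on beyond the stretch towards the promoter and stopped short of it. In the 3 kb from 90246001 to 90249000, 3.2 to 6.2 kb downstream of the start, the WT samples had 5.56%, 4.62% and 1.12% and the DKO samples had 28.9%, 30.8% and 26.1%. The difference there was 24.8 ± 1.92 points (SE, n = 3 each). The window at 5.7 kb had the lowest WT level of the locus: it had 0 methylated of 27, 11 and 60 reads in the WT samples, which allows up to 11.1%, 27.3% and 5%, and 68.8%, 39.1% and 44.4% in the DKO samples. Only 6 CpGs and 11 to 60 reads per sample lie behind these values, and the limits take these reads as independent. At 4.7 kb the WT samples had 10.2%, 12.9% and 4.5% and the DKO samples 40.8%, 35.2% and 17.8%. At 3.7 kb they had 3.0%, 2.3% and 0% in WT and 16.0%, 23.7% and 29.7% in DKO. The DKO mean was thus lower in each window nearer to the start, and no WT sample passed 12.9% in these 3 windows.

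The next 3 kb, 0.2 to 3.2 kb downstream of the start, are called the unmethylated core. They were chosen as the 1 kb windows near the start in which both group means were under 10%. That levels were low in both genotypes thus follows from the choice, and the values are a description. This core held 111 CpGs and had 0.251%, 2.40% and 0.373% in WT and 0.859%, 1.54% and 0.393% in DKO, at or below the level of the mitochondrial control in all but WT replicate 2. The difference of the means was -0.0787 ± 0.774 points (SE), and the samples overlapped. Of 94 CpGs with at least 5 pooled reads in each group, 87 in WT and 86 in DKO had no methylated read. The border was sharp: in 500 bp windows the DKO samples had 23.2%, 34.9% and 33.9% at 4.0 kb and 0%, 0% and 8.33% at 3.5 kb. WT had 3.45%, 4.26% and 0% at 4.0 kb, so the border at 3.5 kb was seen in DKO and not in WT, which was low on both sides of it.

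**Figure D3:**
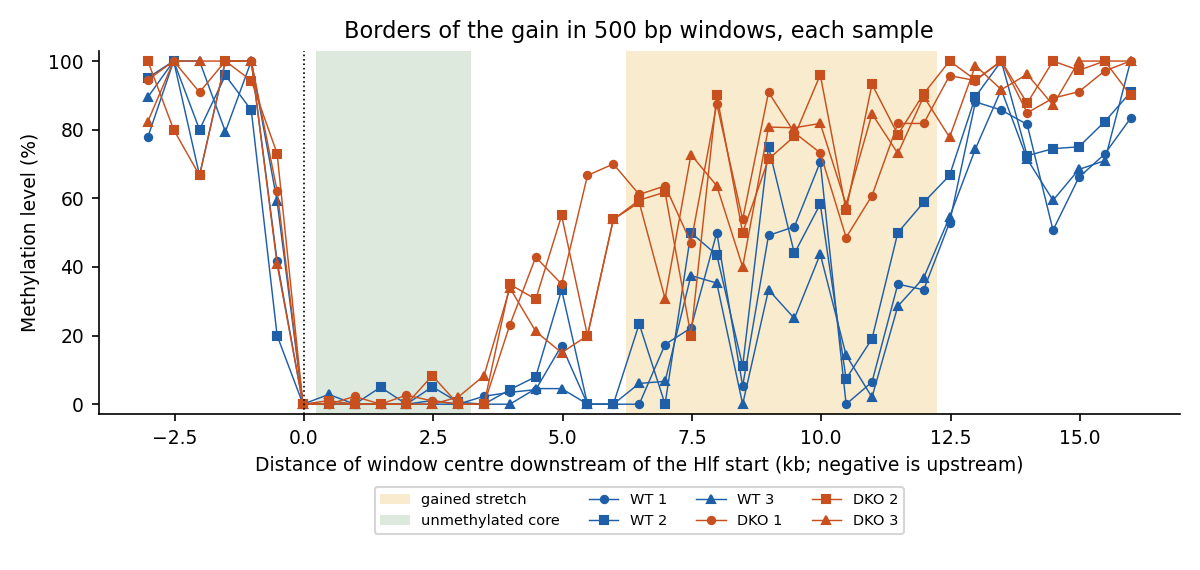
Methylation level (%) of each sample in 500 bp windows against distance downstream of the Hlf start (kb). All 6 samples lie between 0 and about 8% in the core, and downstream of it the DKO lines leave the floor at about 4.0 kb while most WT points stay under 20% until about 7 kb.

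On the other side of the start both genotypes went from unmethylated to methylated within the window that holds the start. The window that holds the start had 12.1%, 9.5% and 39.4% in WT and 28.7%, 46.5% and 8.5% in DKO, with no order between the groups. It joins unlike parts. Its 50 CpGs up to the far end of the promoter sequence had 0 methylated of 139 WT reads and 0 of 199 DKO reads. Its 12 CpGs beyond had 38.4% of 125 WT reads and 57.0% of 172 DKO reads methylated. Those 12 CpGs had 39.5%, 17.9% and 54.2% in the WT samples and 56.9%, 68.7% and 33.3% in the DKO samples, which overlapped. Single CpGs there were mixed. The CpGs at 90252528 and 90252635 had no methylated read in either group, and those at 90252710 and 90252738 had 100% in both. The CpG at 90252640 had 20%, 0% and 0% in the WT samples and 100%, 0% and 33.3% in the DKO samples, on 3 to 8 reads each, so the groups overlapped and DKO replicate 1 alone was high. At 90252830 the groups were apart, on 1 to 9 reads each. This CpG had 0%, 0% and 50% in the WT samples and 77.8%, 100% and 100% in the DKO samples. In the next 500 bp all samples were between 85.7% and 100%.

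Taking the run of adjacent windows in which the groups were apart in this order and the means differed by at least 20 points, the gain was 9 kb long, from 90240001 to 90249000, or 3.2 to 12.2 kb downstream of the start. Over its 123 CpGs the WT samples had 23.2%, 27.1% and 14.3% and the DKO samples had 59.6%, 61.0% and 59.1%. The window just outside its downstream end, at 12.7 kb, had 78.0%, 87.2% and 67.7% in WT and 94.8%, 95.8% and 94.7% in DKO, a difference of 17.5 points that fell short of the minimum. At 13.7 kb the difference was 10.2 points, with 82.3%, 81.4% and 82.2% in WT. The downstream border was therefore not a return to equal levels, and its place depended on where the windows fell. In 500 bp windows the first one outside, at 12.5 kb, differed by 33.1 points on 9 to 47 reads per sample. The one after it differed by 11.8 points, and the groups were apart in both. With 1 kb windows shifted by 500 bp the downstream end lay at 12.73 kb. With a minimum of 10 points the run was 13 kb long and with 30 points 4 kb. Its end towards the promoter was the same at 10 and at 20 points.

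**Figure D4:**
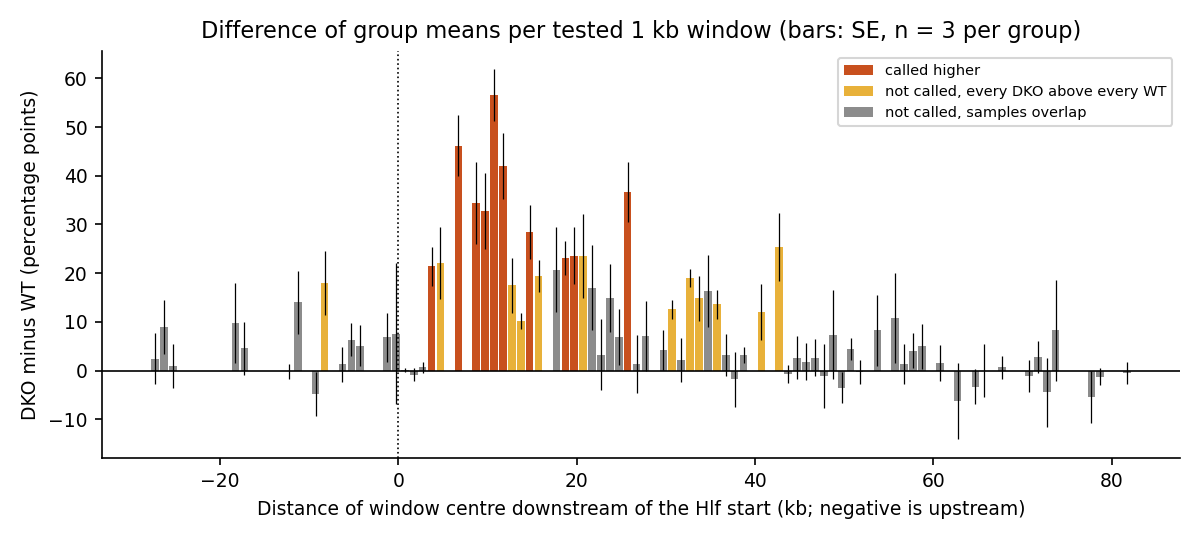
DKO minus WT difference of the group means (percentage points, with SE) for each tested 1 kb window against distance downstream of the Hlf start (kb). Red bars are the 10 windows called higher, yellow bars were not called but have the groups apart with DKO higher, and grey bars overlap; the tallest bar, 56.6 points, is at 10.7 kb.

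Smaller differences reached much farther downstream. In bins of 10 kb counted from the start, the difference of the means was 14.6 points at 0 to 10 kb, 25.2 at 10 to 20 kb, 16.7 at 20 to 30 kb, 9.64 at 30 to 40 kb, 7.67 at 40 to 50 kb and 4.44 at 50 to 60 kb. In each of these 6 bins the lowest DKO value exceeded the highest WT value. The share of 10 kb bins genome-wide with this order was not counted. Farther downstream the difference of the bins was small: it was -0.402 points at 60 to 70 kb and 0.948 at 70 to 80 kb, where the samples overlapped. Upstream of the start it was 4.78 points at 0 to 10 kb, with overlapping samples. At 10 to 20 kb upstream it was 4.58 points with the groups apart, so the 4.44 points at 50 to 60 kb downstream were no larger than these. Without the gained stretch WT averaged 65.7% ± 2.25 and DKO 86.3% ± 3.69 in the bin 10 to 20 kb downstream (SD, n = 3 each). Of the 34 tested windows between the stretch and 50 kb, 14 had the groups apart with DKO higher and 0 with DKO lower, where 9.05% and 3.75% of windows genome-wide did. Of the 19 tested windows beyond 50 kb, 0 had the groups apart in either direction, and 14 differed by under 5 points.

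**Figure D5:**
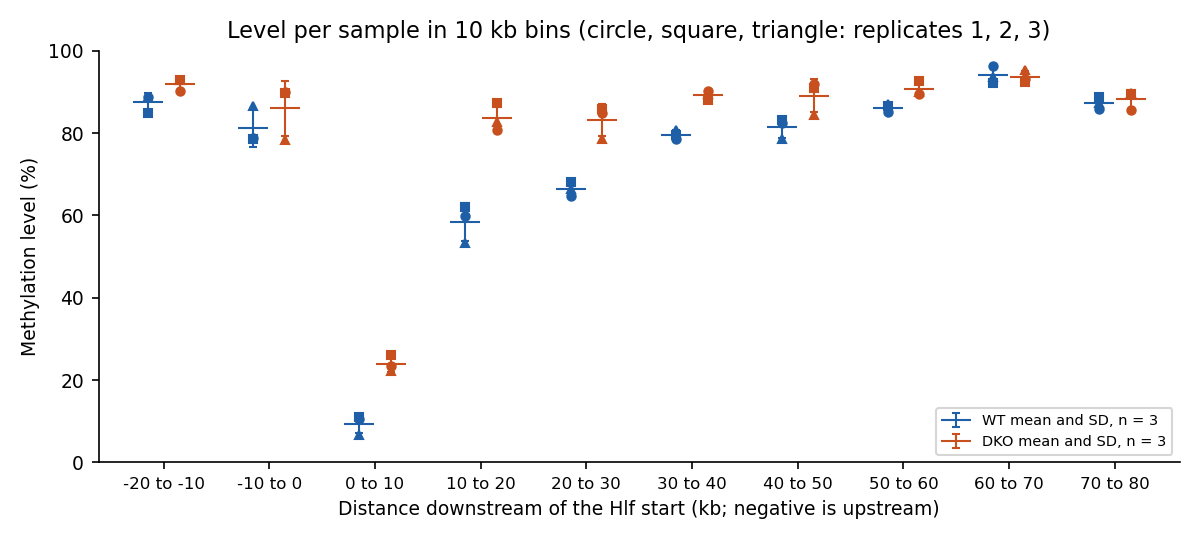
Methylation level (%) of each sample in 10 kb bins by distance downstream of the Hlf start (kb), with the mean and SD of 3 samples per group. The groups are apart from 0 to 60 kb downstream, by 25.2 points at most, and come together from 60 kb on. They are also apart at 10 to 20 kb upstream, by 4.58 points, and overlap at 0 to 10 kb upstream.

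Among tested windows the largest difference outside the stretch was in the window at 25.7 kb (90226001 to 90227000, 19 CpGs), with 34.5%, 34.8% and 41.8% in WT and 73.5%, 83.7% and 64.1% in DKO, a difference of 36.7 ± 6.15 points. Its neighbours were much more methylated in WT: the window at 26.7 kb had 89.7%, 72.5% and 74.1%, and the window at 24.7 kb had 88.9%, 75.7% and 88.6%. The window at 19.7 kb (27 CpGs) had 46.2%, 44.6% and 42.9% in WT and 58.8%, 78.9% and 66.7% in DKO. The window at 18.7 kb had 71.2%, 63.2% and 66.2% in WT and 90.5%, 94.1% and 85.2% in DKO. In all 3 of these windows the WT samples lay close together and the groups did not overlap. Between them and the stretch, the window at 16.7 kb, with too few reads to be tested, had 93.5%, 97.6% and 93.5% in WT and 89.5%, 96.4% and 100% in DKO, which overlapped.

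Farther towards the stretch, the window at 14.7 kb (22 CpGs) had 57.7%, 74.6% and 62.6% in WT and 90.3%, 97.9% and 91.9% in DKO, a difference of 28.4 points. The window at 42.7 kb (90209001 to 90210000, 14 CpGs) had 42.0%, 46.5% and 52.0% in WT and 66.0%, 85.05% and 65.7% in DKO, with a difference of 25.4 points that did not pass the call. The window on its far side, at 43.7 kb, was methylated in both groups, with a difference of -0.659 points and overlapping samples. Not all windows with a WT mean of 50 to 80% had such a difference. The window at 72.7 kb had 67.4%, 78.3% and 71.7% in WT and 64.0%, 59.6% and 80.3% in DKO, which overlapped. Grouped by WT mean level, the 9 tested windows of the locus at 10 to 50% had a median difference of 32.8 points, the 20 at 50 to 80% had 14.9 and the 41 at 80% or more had 2.17. The 7 windows under 10% had a median of 2.43 points but a range from -0.865 to 56.6, since they include both the core and the 10.7 kb window. The WT levels enter both the grouping and the difference. Over all windows tested genome-wide the median difference was 0.928 points.

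The flank upstream of the start differed little, in the same direction. Over the 26 kb from 90253001 to 90279000 the WT samples had 91.4%, 87.5% and 91.8% and the DKO samples 93.2%, 93.2% and 93.2%, a difference of 2.97 ± 1.36 points (SE) with no overlap. Of 13 tested windows upstream, 11 had the higher mean in DKO (median 5.08 points), but 0 were called and 1 had the groups apart. That window, 8.3 kb upstream, had 82.9%, 65.5% and 85% in WT and 100%, 93.1% and 94.4% in DKO. It makes up 7.69% of the 13, no more than the 9.05% of windows genome-wide with the groups apart and DKO higher. The DKO mean was also the higher one in 451073 of the 774732 windows tested genome-wide, with a median difference of 0.928 points over all of them. The last window of the locus, about 27 kb upstream, is CpG-dense (54 CpGs) and was low in both groups, with 18.1%, 4.8% and 4.0% in WT and 14.2%, 6.4% and 13.5% in DKO, which overlapped. The 3 tested windows with the most negative differences were at 62.7 kb and 77.7 kb downstream and 9.3 kb upstream, with -6.29 ± 7.84, -5.48 ± 5.30 and -4.82 ± 4.61 points (SE), within the spread of the samples. Among windows with too few reads to be tested, those at 63.7 kb and 52.7 kb downstream and, on the upstream side, at -23.3 kb had all DKO values below all WT values. Their differences were -10.8 ± 2.44, -8.16 ± 4.45 and -13.1 ± 3.02 points (SE). Other untested windows, at 28.7 kb and 66.7 kb downstream and at -13.3 kb, had all DKO values above all WT values. There the differences were 27.3 ± 4.47, 10.1 ± 2.83 and 6.44 ± 1.48 points (SE). Over all 1408 CpGs outside the gained stretch WT averaged 68.0% ± 1.83 and DKO 75.8% ± 0.550 (SD, n = 3 each).

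The read depth of the stretch, which did not enter the choice of the locus, did not separate the groups. Divided by the mean depth of autosomal CpGs it was 1.25, 0.940 and 1.07 in WT and 1.10, 1.10 and 1.11 in DKO, a difference of 0.0191 ± 0.0888 (SE; two-sided exact permutation p = 0.7, n = 3 each, where 3 against 3 cannot go below 0.1). Since the DKO libraries were deeper, the stretch was also measured over the 53 CpGs that all 6 samples covered, each CpG given a fixed weight. The means then lay 40.9 points apart.

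The promoters of other members of the family were unmethylated, as that of Hlf was. Dbp and Tef encode the other PAR bZIP activators, and Nfil3 a bZIP repressor that binds the same kind of site. All 5 promoter sequences of the 4 genes could be placed by their CpG spacing. At the promoters of Dbp (18 CpGs, 52 to 117 reads per sample) and Nfil3 (54 CpGs, 30 to 239 reads), and at 1 of the 2 of Tef (25 CpGs, 44 to 213 reads), all 6 samples had 0%. At the other Tef promoter (9 CpGs, 12 to 51 reads) DKO replicate 2 had 8.33% and the other samples 0%. With nearly all values at 0, no test could tell the groups apart at these promoters.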

How the data were processed

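The authors deposited, for every CpG and each of 6 samples, raw counts of total and of methylated reads. The submitters' processing notes name BSMAP 2.74 and mm9; the sources used here state no read filters or removal of duplicates. There were 0 columns of other samples. Reads were summed over 1 kb windows. Autosomal windows (774732) in which each sample had 20 or more reads, over 3 or more CpGs, were tested with a quasi-binomial model whose dispersion was moderated by limma 3.58.1 (R 4.3.3; squeezeVar, floor 1) and adjusted by the Benjamini-Hochberg method; simulated data with known changes served to check it. Single values used exact permutation tests (scipy 1.17.1). The members, gene lists and tests were chosen with earlier results of these data known. Named windows were those of the gained stretch, the 3 on either side, the lowest in WT, the 3 largest and 3 most negative differences outside the stretch and other called windows. Windows at 16.7, 24.7, 26.7, 43.7 and 72.7 kb and untested windows with the groups apart were chosen after their values were seen. So were the window 8.3 kb upstream, the last window, CpGs outside the stretch, the 10 kb bins and the level classes. Named CpGs were the 6 in the stretch with the most reads in their least covered sample, ties taken in order of position. Promoters were placed where at least 8 CpGs, 80% of them listed, matched at 1 place. Replicates were compared by reads per 1 Mb and no pair agreed within sampling noise (chi-square per degree of freedom 11.8 to 117 within groups). Intervals and upper limits (3 counts) cover counting error only. They take counts at neighbouring CpGs as independent, so they are too narrow where these share a molecule.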

Additional observations from a re-analysis of the deposited data

How the results depend on the processing

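The direction over the gained stretch and the rest of the locus held in every alternative run. The stretch was chosen for this direction. The groups did not overlap in either part, so leaving out a sample could not turn it, and no support is drawn from this. The difference was 40.1 points over the stretch as a mean over CpGs that all samples covered, 36.6 over the 17 CpGs where each sample had 3 or more reads, and 40.9 with the same CpG weights; for the rest of the locus these were 7.38, 7.61 and 7.61 points, and 7.11 to 8.78 without each sample in turn. The number of windows of the locus called higher, 10, was 10 with windows shifted by 500 bp, with a minimum of 20 points and with no minimum. It was 2 with a minimum of 10 reads, 1 with 40 reads and 25 with Fisher's exact test on pooled reads. It was 0 with limma on log2 ratios, 0 with 500 bp windows and 0 with the replicate number as a block, and 1 to 4 without each sample in turn. Genome-wide the main run called 3798 windows higher, and limma, 500 bp windows and the block each called 0. Fisher's test called 43039 there, a minimum of 10 reads 303, of 40 reads 269, and the runs without each sample 29 to 738. The cause was not tested. At an unadjusted p under 0.05 limma had 20 windows higher and 0 lower, 500 bp windows 21 and 3, and the replicate block 24 and 0. None of these alternatives called a window of the locus lower. Deviations of same-numbered samples correlated by 0.00332 to 0.00359 over windows, so the numbers were not taken to pair the samples, although each sample correlated best with its own number; with the replicate block, the mean of same-numbered differences over the stretch was 42.6 points. The length of the gain, 9 kb, was 4 kb with a minimum of 30 points, 7 to 10 kb without each sample in turn, and 0 kb in 500 bp windows, where the central window overlapped between groups (WT replicate 2 had 75%, of 16 reads). The difference in relative depth was -0.00664 over chromosome 11 (exact permutation p = 1) and -0.0539 to 0.0994 without each sample in turn, with the sign turned only without WT replicate 2 among these. Hlf promoter levels stayed at 0. Depth limits single CpGs, windows at 5.7 and 7.7 kb and the promoter most.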
